A study of Homo sapiens with 4 samples.

Results

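Messenger RNA was compared between HGC27 and MKN45, both human gastric cancer lines, and the question here was which genes answered the cardiac glycoside periplocymarin in one line and not in the other, or in opposite directions. The study had 4 libraries: HGC27 in 0.1% DMSO (the vehicle), HGC27 in 0.3 µM periplocymarin, MKN45 in 0.1% DMSO and MKN45 in 0.3 µM periplocymarin, each harvested after 24 h. The labels give no genotype beyond the line. Both are established lines, HGC27 derived from an undifferentiated carcinoma and MKN45 from a poorly differentiated adenocarcinoma, so each stands for 1 tumour. With 1 library per line and treatment nothing could be tested, so no p-value is given and every fold below describes these 4 libraries.

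A gene was a member where its mean level over the vehicle and treated libraries was at least 1 FPKM (a level scaled for transcript length and sequencing depth) in each line, which held for 10071 of 62710 genes. Including these, 11821 genes reached that mean in HGC27 and 11895 in MKN45. The response of a gene in a line is its treated minus vehicle difference of log2(FPKM + 1), and the line difference is the HGC27 response minus the MKN45 response. A line difference of 1 means that the treated to vehicle ratio was 2 times that of MKN45. Adding 1 FPKM understates the change of genes at low levels. A response or a line difference was called at 1 or beyond in either direction, and "near 0" below means a response within 0.25 of 0.

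Periplocymarin blocks the Na,K-ATPase, the pump that exports sodium and imports potassium. Loss of the ion gradient is known to slow protein synthesis and to weigh on amino acid uptake, which is driven by sodium. Gene programs that commonly answer such stress are the targets of ATF4, a transcription factor of amino acid shortage, the unfolded protein response of the endoplasmic reticulum, the nucleolar genes that build ribosomes, and the lysosome and autophagy genes that recycle cell contents.

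Estimated from the deposited values, depth was 25.1 M reads in vehicle and 23.3 M in treated HGC27, and 34.6 and 26.0 M in MKN45. The library sizes that the FPKM scale implied were 32.3 and 23.6 M in HGC27, and 36.9 and 23.8 M in MKN45. Above 0 were 25992 and 25494 genes in the vehicle libraries of HGC27 and MKN45 against 21774 and 21757 in the treated ones. The treated library was the shallower in each line, so depth and treatment cannot be told apart in these counts. HGC27 lacked epithelial markers in both libraries (CDH1, EPCAM, KRT8, KRT18 and KRT19, at most 0.21 FPKM) and held 406 and 379.6 FPKM of VIM, the mesenchymal filament, although CDH2 was at or near 0. MKN45 held 113 to 1120 FPKM of the epithelial markers and at most 0.446 FPKM of VIM. Of 10 markers of leukocytes, endothelium and red cells, none was a member. HBB and CDH5 were at 0 in all 4 libraries, whereas HBA1 stood at 5.98 and 10.5 FPKM in vehicle and treated HGC27 and CD68 at 1.07 and 2.46 FPKM in MKN45. Their part in the results was not tested. In bulk RNA, fewer cells expressing a gene and less of its RNA per cell cannot be told apart.

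Most members had a line difference within 1 of 0. The median response was 0.18 in HGC27 and 0.12 in MKN45, the median line difference was 0.03, and the middle 90% of line differences ran from -1.04 to 1.06 (SD 0.67). A line difference of at least 1 was seen in 598 members (5.94%), and one of at most -1 in 569 (5.65%). The median counting error of a line difference was 0.08. Among these called genes with at least 5 estimated reads in each library, the 95% counting interval excluded 0 for 579 of 579 and 517 of 520. It also did so for 7745 of 9830 of all members with an interval. For genes chosen at 1 or beyond, with an error this small, that outcome was nearly fixed in advance. These intervals cover counting error only and not variation between cultures. Among the 598 genes, 218 had a called response in HGC27 alone and 135 in MKN45 alone, 15 were called the same way in both lines, 10 were called in opposite directions, and 220 had no called response in either line. For 391 of them (65.4%) the responses had opposite signs. The corresponding numbers among the 569 genes were 185, 157, 27, 11 and 189, with opposite signs for 331 (58.2%). A called line difference therefore often joined a modest change in one line to a modest opposite change in the other.

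The balance of the calls differed with level. At a lower-line mean of 1 to 3 FPKM the median line difference was -0.05, at 30 to 100 FPKM it was 0.26 and above 100 FPKM it was 0.38. Among the 3189 members whose mean reached 10 FPKM in both lines, 207 (6.49%) were at least 1 higher in HGC27 and 93 (2.92%) at least 1 lower. Within the lines, 20.0% of these were called higher and 2.54% lower in HGC27, and 14.5% and 3.86% in MKN45. It differed with scaling too. With libraries rescaled to a common total the median line difference went to -0.23, with 454 members higher and 1448 lower (23.9% of calls higher, against 51.2% on the deposited scale). Directions of single genes and lists are therefore given on the deposited scale. The 197 genes with a called line difference chosen for naming kept their sign under that rescaling, which genes chosen at 1 or beyond would mostly do. Of them 170 stayed at or past the threshold.

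**Figure D1:**
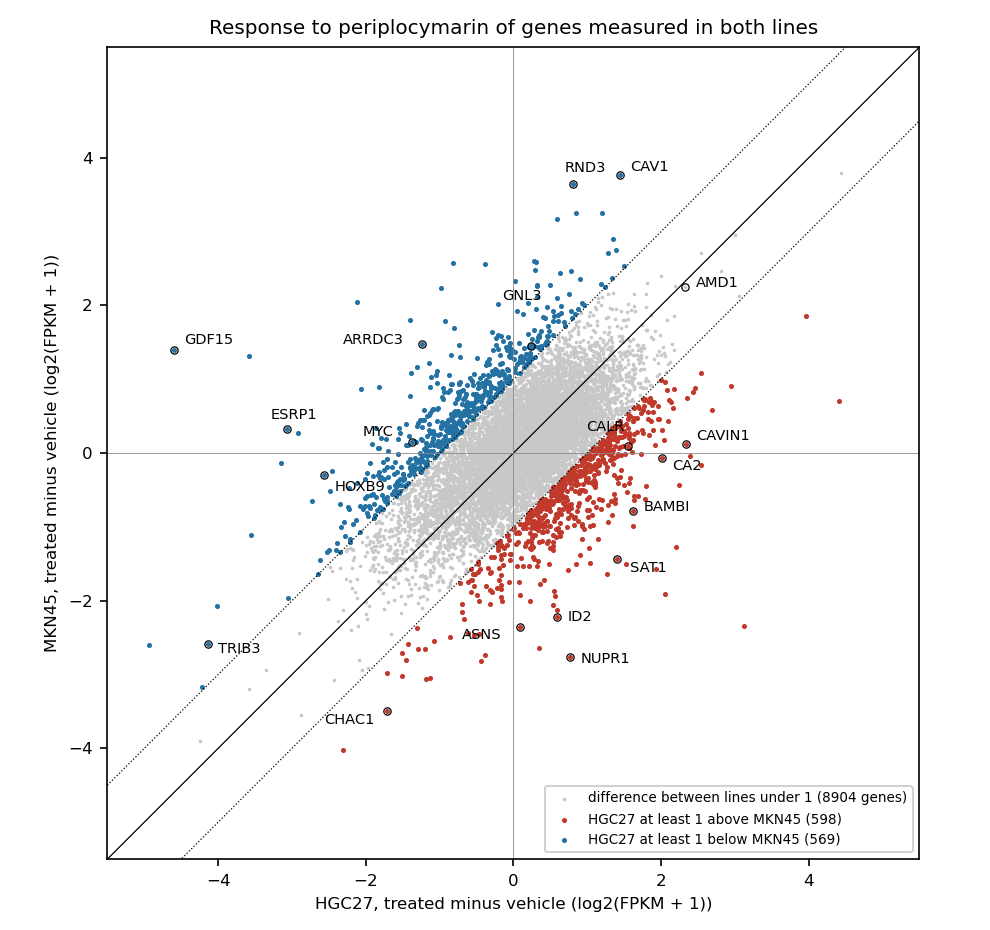
Response in HGC27 (horizontal axis) against response in MKN45 (vertical axis), both treated minus vehicle in log2(FPKM + 1), for the 10071 genes measured in both lines, 1 point per gene. The solid line marks equal responses and the dotted lines a line difference of 1; red points (598) lie at least 1 toward HGC27 and blue points (569) at least 1 toward MKN45, with GDF15 farthest toward MKN45 among the labelled genes.

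Past the threshold in HGC27 and near 0 in MKN45 were 129 members that were higher (1.28%) and 104 that were lower (1.03%). Past it in MKN45 and near 0 in HGC27 were 100 that were higher (0.993%) and 70 that were lower (0.695%). Opposite called responses were seen for 10 members higher in HGC27 (0.0993%) and 11 higher in MKN45 (0.109%). Where the mean reached 10 FPKM in both lines the first 4 counts were 53 (1.66%), 5 (0.157%), 24 (0.753%) and 17 (0.533%), and the opposite classes held 1 gene (0.0314%) and 2 genes (0.0627%). What these genes are is described list by list. List counts stand against the shares called over all members, which were 10.4% higher and 8.51% lower in HGC27 and 8.45% and 7.04% in MKN45. For line differences these shares were 5.94% at least 1 and 5.65% at most -1.

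**Figure D2:**
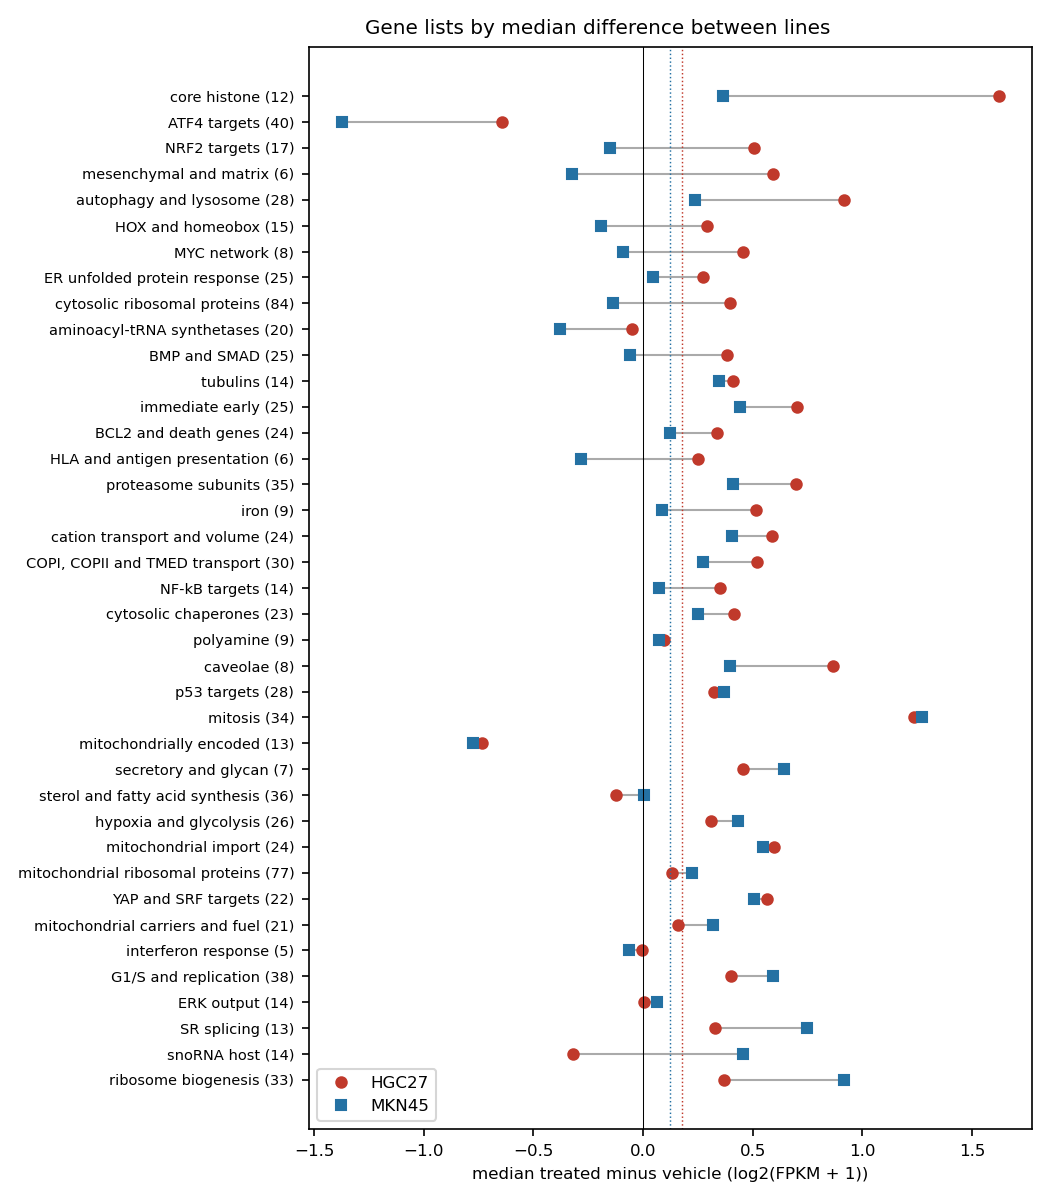
Median response (horizontal axis, log2(FPKM + 1)) of each gene list in HGC27 (red circles) and MKN45 (blue squares), for lists with at least 5 members, whose number is in brackets. Dotted lines mark the medians of all members, 0.18 for HGC27 and 0.12 for MKN45; rows are ordered by median line difference, with core histones (0.96) and ATF4 targets (0.89) at the top and ribosome biogenesis (-0.67) and snoRNA host genes (-0.64) at the bottom.

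Of 45 ATF4 targets 40 were members. In MKN45, 29 were called lower and 3 higher, with a median response of -1.37, and in HGC27 13 were called lower and 1 higher, with a median of -0.64. Over all members 7.04% were called lower and 8.45% higher in MKN45, and 8.51% and 10.4% in HGC27. The line difference was at least 1 for 18 of the 40, at most -1 for 4, and had a median of 0.89 against 0.03 over all members. ATF4 itself went from 216 FPKM to 179.98 in HGC27 and from 202 to 220.5 in MKN45, and neither response reached the threshold.

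Genes of amino acid synthesis had a median line difference of 0.97. Asparagine synthetase (ASNS, chromosome 7, 97852118 to 97872542, minus strand in GENCODE 29 coordinates of GRCh38) went from 150.02 FPKM to 160.3 in HGC27 and from 98.9 to 18.5 in MKN45, a line difference of 2.45 (95% counting interval 2.38 to 2.52). Its reads are uncertain in part because 44.6% of its exon length is shared with the gene model AC079781.5. PHGDH, which starts serine synthesis from glycolysis (chromosome 1, 119648411 to 119744226, plus strand), went from 39.7 FPKM to 58.4 in HGC27 and from 24.7 to 6.06 in MKN45 (2.41; 2.33 to 2.49). For both, the treated MKN45 library was the lowest of the 4 and the treated HGC27 library the highest. CTH, which makes cysteine from cystathionine, went from 49.8 FPKM to 36.6 in HGC27 and from 48.2 to 5.99 in MKN45. The later serine enzymes PSAT1 and PSPH were lower in both lines but more so in MKN45. Phosphoserine aminotransferase PSAT1 went from 555 FPKM to 373 in HGC27 and from 185 to 49.4 in MKN45, and PSPH went from 41.9 FPKM to 26.1 in HGC27 and from 71.3 to 14.2 in MKN45. The argininosuccinate synthase ASS1 was called lower in both lines and had a line difference of 1.51. Among the 13 members of this role 11 were called lower in MKN45 against 2 in HGC27, and 6 had a line difference of at least 1.

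**Figure D3:**
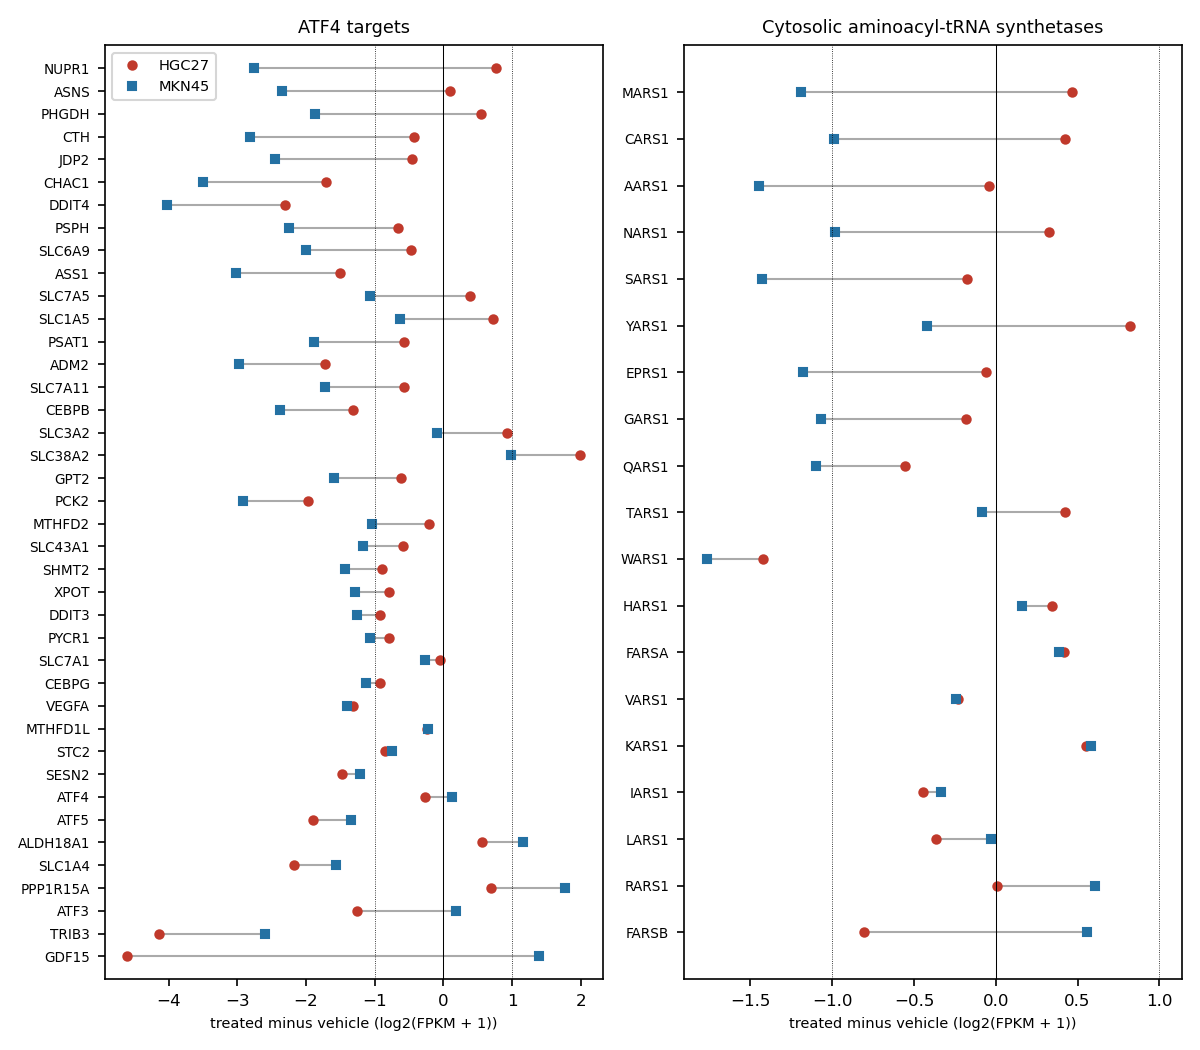
Response (horizontal axis, treated minus vehicle in log2(FPKM + 1)) of ATF4 targets (left) and cytosolic aminoacyl-tRNA synthetases (right) in HGC27 (red circles) and MKN45 (blue squares), ordered by line difference, with 1 synthetase not shown. Dotted lines mark responses of -1 and 1; NUPR1 is at the top and GDF15 at the bottom of the left panel, and MARS1 and FARSB are at the ends of the right panel.

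All 9 amino acid carriers on the list were members, and 6 had a line difference of at least 1. SLC7A5, the light chain of the large neutral amino acid carrier, went from 142 FPKM to 186 in HGC27 and from 82.4 to 38.7 in MKN45. Its heavy chain SLC3A2 went from 75.4 FPKM to 144 in HGC27 and from 43.5 to 40.7 in MKN45. The glutamine carrier SLC1A5 went from 85.6 FPKM to 142 in HGC27 and from 119 to 76.1 in MKN45. These 3 genes were higher in treated than in vehicle HGC27 and lower in treated than in vehicle MKN45. The glycine carrier SLC6A9 and the cystine carrier SLC7A11 were lower after treatment in both lines, with line differences of 1.53 and 1.15. SLC38A2, a sodium-coupled neutral amino acid carrier, was higher in both, with responses of 1.99 in HGC27 and 0.99 in MKN45.

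The stress regulators split. NUPR1, a small stress-induced chromatin protein (chromosome 16, 28532708 to 28539174, minus strand), had a line difference of 3.53 (95% counting interval 3.397 to 3.66) and went from 27.5 FPKM to 47.5 in HGC27 and from 7.73 to 0.289 in MKN45. JDP2, a repressor of AP-1 sites, went from 10.95 FPKM to 7.68 in HGC27 and from 7.66 to 0.5896 in MKN45. The glutathione-degrading CHAC1 went from 37.2 FPKM to 10.7 in HGC27 and from 18.2 to 0.695 in MKN45, and DDIT4, an inhibitor of mTORC1, went from 489.9 FPKM to 98.1 in HGC27 and from 134 to 7.27 in MKN45, so that both were lower in both lines with more left in HGC27. Of the exon length of DDIT4, 41.2% is shared with the antisense model DDIT4-AS1, so that its values are uncertain. Beyond the threshold toward MKN45 were 4 ATF4 targets. TRIB3, a pseudokinase that binds ATF4, went from 115 FPKM to 5.56 in HGC27 and from 54.3 to 8.18 in MKN45. ATF3 went from 17.4 FPKM to 6.705 in HGC27 and from 2.61 to 3.104 in MKN45. PPP1R15A, the stress-induced regulator of eIF2 alpha dephosphorylation, was higher after treatment in both lines and more so in MKN45 (-1.09). The 4th was GDF15, described with the opposite genes below.

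The letters searched for an ATF4 site were those of the C/EBP-ATF response element, TGATGNAAN on either strand, in RefSeq promoters from 250 bases before to 50 after each start (GRCh38.p14). Of 27305 promoters 3.67% held it, and 7638 members had a promoter by symbol, of which 1.57% held it. It was found in 6 of 33 ATF4 targets with a promoter: ASNS, SLC3A2, CHAC1, ATF3, SLC7A1 and MTHFD1L. Matches stood in 3 of the 15 with a line difference of at least 1 and in 3 of the other 18. The ASNS and CHAC1 stretches are shown because their genes ended with the lowest shares of the vehicle level in MKN45 among the matched targets, and that of HERPUD1, a gene of the unfolded protein response, because it was lower in MKN45 and near 0 in HGC27. Capitals mark the match, and none of the 3 overlapped another motif searched.
ASNS: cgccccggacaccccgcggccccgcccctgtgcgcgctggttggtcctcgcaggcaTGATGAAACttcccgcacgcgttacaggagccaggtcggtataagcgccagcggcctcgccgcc
CHAC1: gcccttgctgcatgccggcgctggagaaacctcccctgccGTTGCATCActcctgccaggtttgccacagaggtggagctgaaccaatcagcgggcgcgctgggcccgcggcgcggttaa
HERPUD1: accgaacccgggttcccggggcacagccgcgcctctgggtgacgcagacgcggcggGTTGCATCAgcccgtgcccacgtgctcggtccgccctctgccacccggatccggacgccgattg
The ASNS stretch lies at chr7:97872413-97872532, minus strand, with the match beginning 68 bases before the start. That of CHAC1 lies at chr15:40953221-40953340, plus strand, with the match 210 bases before, and that of HERPUD1 at chr16:56931909-56932028, plus strand, with the match 177 bases before. A match describes letters and is no measurement of binding.

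Cytosolic aminoacyl-tRNA synthetases, which charge tRNAs with amino acids, stood lower against vehicle in MKN45 (median response -0.38) than in HGC27 (-0.05). All 20 were members, 7 were called lower in MKN45 against 2 in HGC27, and none was called higher in either line. The line difference was at least 1 for MARS1, CARS1, AARS1, NARS1, SARS1, YARS1 and EPRS1 and at most -1 for FARSB, with a median of 0.43. AARS1, the alanine enzyme (chromosome 16, 70252295 to 70289543, minus strand), went from 54.7 FPKM to 53.1 in HGC27 and from 53.8 to 19.1 in MKN45, a line difference of 1.41 (95% counting interval 1.32 to 1.49). Its vehicle levels were almost equal in the lines, and only the treated MKN45 library stood apart. SARS1, the serine enzyme, went from 114 FPKM to 101 in HGC27 and from 57.999 to 20.9 in MKN45, and EPRS1, which charges glutamate and proline, went from 109 FPKM to 104 in HGC27 and from 58.9 to 25.5 in MKN45. MARS1, the methionine enzyme, went from 33.6 FPKM to 46.9 in HGC27 and from 52.98 to 22.7 in MKN45, and NARS1, the asparagine enzyme, went from 87.3 FPKM to 109.8 in HGC27 and from 104 to 52.04 in MKN45. Treated HGC27 was above its vehicle and treated MKN45 below its vehicle for both. WARS1, the tryptophan enzyme, was called lower in both lines with a line difference of 0.35. FARSB, the beta subunit for phenylalanine, went from 27.1 FPKM to 15.1 in HGC27 and from 9.22 to 14.1 in MKN45, while the alpha subunit FARSA had a line difference of 0.04.

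The same element was found in 6 of 16 synthetase promoters, which were 4 of the 6 with a line difference of at least 1 and 2 of the other 10 (IARS1 and TARS1). The 4 are shown because they are the members of the list that pair a match with a called line difference, with capitals on the match.
AARS1: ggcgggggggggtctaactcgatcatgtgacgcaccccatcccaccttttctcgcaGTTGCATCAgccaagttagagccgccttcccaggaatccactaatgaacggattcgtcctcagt
CARS1: ccggggcggcgGTTGCATCAgattctagga
MARS1: ggccggttccgGTTGCATCAgcgagggatt
NARS1: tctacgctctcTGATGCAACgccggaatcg
They lie at chr16:70289631-70289750 (minus strand), chr11:3057408-3057437 (minus strand), chr12:57488052-57488081 (plus strand) and chr18:57621804-57621833 (minus strand). The match begins 188 bases before the start in AARS1, 3 before it in CARS1 and 5 before it in MARS1, and at base 15 after it in NARS1. The CARS1, MARS1 and AARS1 stretches carry the same 9 letters, as do those of CHAC1 and HERPUD1 above, while NARS1 carries their reverse complement. In MARS1 the match overlaps by its first letter a CArG motif of serum response factor, the only other motif that touched a match here.

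Genes of bone morphogenetic protein (BMP) signalling, in which receptors act through SMAD transcription factors and induce ID genes and feedback inhibitors, leaned toward HGC27. Of 39 genes 25 were members, 6 had a line difference of at least 1, none was at most -1, and the median was 0.40. ID2, which blocks basic helix-loop-helix factors (chromosome 2, 8678845 to 8684453, plus strand), went from 27.2 FPKM to 41.4 in HGC27 and from 69.9 to 14.2 in MKN45, a line difference of 2.805 (95% counting interval 2.67 to 2.94). ID1 (chromosome 20, 31605283 to 31606515, plus strand) went from 33.1 FPKM to 49.2 in HGC27 and from 36.6 to 8.88 in MKN45 (2.49; 2.29 to 2.69). Both were higher in treated than in vehicle HGC27 and lower in treated than in vehicle MKN45.

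The brakes of the pathway showed the same direction in part. BAMBI, a receptor without kinase domain (chromosome 10, 28677342 to 28682939, plus strand), went from 9.54 FPKM to 31.4 in HGC27 and from 4.87 to 2.39 in MKN45 (2.41; 2.17 to 2.65). The inhibitory SMAD6 (chromosome 15, 66702228 to 66782848, plus strand) went from 1.95 FPKM to 7.02 in HGC27 and from 5.96 to 4.58 in MKN45 (1.76; 1.62 to 1.901). SMAD7 was higher in both lines, from 1.89 FPKM to 4.17 in HGC27 and from 0.701 to 1.32 in MKN45, and the ubiquitin ligase SMURF1 was called higher in HGC27 alone, from 6.76 to 16.9 FPKM against from 12.2 to 17.8 FPKM in MKN45. Of the ligands, BMP4 was called higher in both lines, from 1.77 FPKM to 10.6 in HGC27 and from 17.4 to 38.3 in MKN45, and TGFB1 went from 8.41 FPKM to 17.1 in HGC27 and from 4.32 to 4.07 in MKN45. The receptor BMPR1A went from 7.51 FPKM to 16.01 in HGC27 and from 5.51 to 5.24 in MKN45. The receptor-activated SMAD3 and SMAD5 went the other way, with line differences of -0.90 and -0.89. SMAD4, the shared partner of the receptor-activated SMADs, was no member: it stood at 4.36 and 6.37 FPKM in vehicle and treated HGC27 and at 0.00414 and 0 FPKM in MKN45. ID3, at 42.3 and 36.6 FPKM in HGC27 and at most 0.1402 FPKM in MKN45, was no member either, and the part of these baseline differences was not tested.

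Promoters were searched for the SMAD palindrome GTCTAGAC, found in 0.201% of all RefSeq promoters, and for the GC-rich SMAD motif GGCGCC, found in 18.97%. Of the 22 promoters of the list 1 held the palindrome and 9 the GC-rich motif, so the latter count says little beside the 32.55% among members. The GC-rich motif stood in 1 of the 6 with a line difference of at least 1 and in 8 of the other 16, so it was not more common among the called genes. SMAD6 and BAMBI are shown as the called genes of the list with a match, in capitals.
SMAD6: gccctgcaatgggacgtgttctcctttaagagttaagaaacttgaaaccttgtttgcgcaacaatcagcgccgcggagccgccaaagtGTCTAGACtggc
BAMBI: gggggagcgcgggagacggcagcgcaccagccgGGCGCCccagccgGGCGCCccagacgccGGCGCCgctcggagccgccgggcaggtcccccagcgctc
The SMAD6 stretch lies at chr15:66702136-66702235, plus strand, with the palindrome 12 bases before the start, and that of BAMBI at chr10:28677279-28677378, plus strand, with matches beginning 209, 196 and 181 bases before the start, the first 2 of which overlap CArG motifs.

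**Figure D4:**
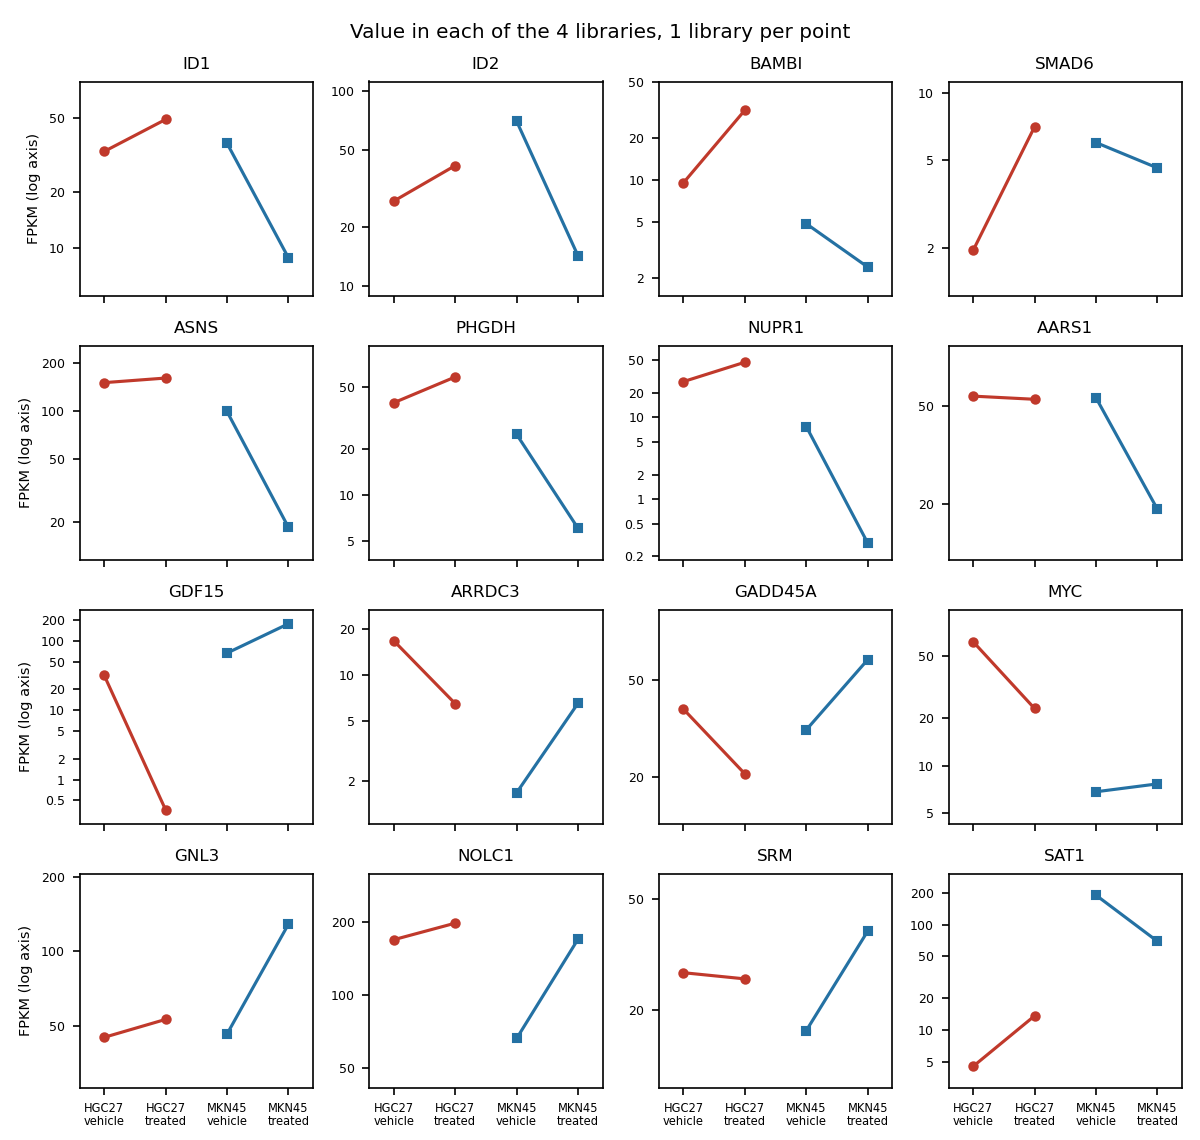
FPKM (vertical log axis, different for each panel) of 16 genes in vehicle and treated HGC27 (red circles) and vehicle and treated MKN45 (blue squares), with a line joining the libraries of a line and no replicates. In the upper 2 rows the MKN45 lines slope down while HGC27 is level or slopes up; in the others GDF15, ARRDC3, GADD45A and SAT1 slope in opposite directions and the MKN45 increase of GNL3, NOLC1 and SRM meets a flat HGC27 line.

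The strongest opposite response belonged to GDF15, a secreted stress cytokine and ATF4 target (chromosome 19, 18374731 to 18389176, plus strand). It went from 32.1 FPKM to 0.366 in HGC27 and from 66.8 to 177 in MKN45, a line difference of -5.99 (95% counting interval -6.19 to -5.798). The treated HGC27 value rests on an estimated 18 reads, and the highest library was treated MKN45. ARRDC3, an arrestin-like protein of receptor and glucose carrier turnover, went from 16.7 FPKM to 6.46 in HGC27 and from 1.69 to 6.503 in MKN45 (-2.72). SAT1, which acetylates and so breaks down spermidine and spermine, went from 4.52 FPKM to 13.6 in HGC27 and from 190.5 to 69.5 in MKN45 (2.85), so that MKN45 stayed the higher line with less of a gap.

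Other opposite genes on the HGC27 side were CYBRD1, a ferric reductase, from 2.48 FPKM to 6.12 in HGC27 and from 4.99 to 1.14 in MKN45, and EPDR1, from 7.401 FPKM to 19.2 in HGC27 and from 14.7 to 4.04 in MKN45. FBXL19, an F-box protein, went from 9.19 FPKM to 19.7 in HGC27 and from 8.55 to 2.93 in MKN45, and PBXIP1 went from 2.35 FPKM to 6.39 in HGC27 and from 3.59 to 1.05 in MKN45. On the MKN45 side DSP, the desmosomal plaque protein desmoplakin, went from 1.92 FPKM to 0.4296 in HGC27 and from 24.05 to 52.9 in MKN45. PROCR, the protein C receptor, went from 7.56 FPKM to 2.95 in HGC27 and from 10.4 to 22.2 in MKN45, and GPCPD1, which cleaves glycerophosphocholine, went from 3.7999 FPKM to 1.31 in HGC27 and from 1.51 to 4.23 in MKN45. The orphan receptor GPRC5B went from 5.7996 FPKM to 1.595 in HGC27 and from 69.1 to 148 in MKN45, with 26.7% of its exon length shared with IQCK. Where the mean reached 10 FPKM in both lines the opposite genes were RPL7A on one side and GDF15 and RPS10-NUDT3 on the other. RPL7A went from 77.5 FPKM to 297 in HGC27 and from 207 to 69.3 in MKN45, and 12.7% of its exon length is shared with small nucleolar RNA models. RPS10-NUDT3 is a read-through model that shares all its exons with other genes. Its values are uncertain, as are those of the other read-through and small nucleolar RNA entries.

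Beyond these classes, the 12 highest line differences among protein-coding genes of that level included TOB1, an antiproliferative protein, from 16.6 FPKM to 53.8 in HGC27 and from 72.2 to 46.2 in MKN45, and MMP14, a membrane-bound matrix protease, from 53.2 FPKM to 114 in HGC27 and from 20.9 to 10.1 in MKN45. RPS18, a small-subunit ribosomal protein, went from 41.2 FPKM to 48.3 in HGC27 and from 50.1 to 11.8 in MKN45. MIF, a cytokine, went from 48.4 FPKM to 170.5 in HGC27 and from 159 to 116 in MKN45, but its exons lie almost wholly over the antisense model MIF-AS1, and a second gene model of MATR3 with a line difference of 2.72 overlaps the main one. The 12 lowest included RND3, a small GTPase that loosens actin stress fibres, from 10.9 FPKM to 19.9 in HGC27 and from 3.01 to 49.1 in MKN45, and AKAP12, an anchor of protein kinase A, from 7.41 FPKM to 14.1 in HGC27 and from 2.19 to 29.5 in MKN45. The small nuclear RNA transcription subunit SNAPC1 went from 13.2 FPKM to 16.8 in HGC27 and from 8.52 to 44.6 in MKN45, and the ADP-ribosyltransferase TIPARP went from 9.96 FPKM to 16.01 in HGC27 and from 12.7 to 73.5 in MKN45. RND3, AKAP12, SNAPC1 and TIPARP were higher in both treated libraries and differed by how much higher they were in MKN45. MRPS26, of the mitochondrial ribosome, instead was lower mainly in treated HGC27, from 20.4 FPKM to 4.304 in HGC27 and from 20.7 to 16.02 in MKN45. An uncertain gene model over PTP4A1 was also among the 12.

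Genes of autophagy and the lysosome were higher against vehicle in HGC27 (median response 0.92) than in MKN45 (0.24). Of 28 autophagy and lysosome genes 13 were called higher in HGC27 and 2 in MKN45, 9 had a line difference of at least 1 and none of at most -1, and the median was 0.64. ATP6V0E1, a subunit of the proton pump that acidifies lysosomes, went from 29.6 FPKM to 164 in HGC27 and from 38.5 to 69.3 in MKN45. GABARAPL1, an ATG8 family protein of the autophagosome, went from 5.99 FPKM to 19.7 in HGC27 and from 4.17 to 5.13 in MKN45, and ATG9A, the membrane carrier of early autophagosomes, went from 10.7 FPKM to 30.2 in HGC27 and from 8.63 to 10.1 in MKN45. The lysosomal membrane proteins LAMP1 and LAMP2 were called in HGC27 and near 0 in MKN45. LAMP2 went from 17.3 FPKM to 41.5 in HGC27 and from 15.8 to 18.004 in MKN45. CTSD, a lysosomal protease, went from 12.5 FPKM to 21.05 in HGC27 and from 16.4 to 10.6 in MKN45, and ULK1, the kinase that starts autophagy, went from 1.42 FPKM to 2.08 in HGC27 and from 6.16 to 2.61 in MKN45, both lower after treatment in MKN45. Values of ATG9A and CTSD are uncertain, since 38.8% and 57.5% of their exon length is shared with other gene models. The late endosome GTPase RAB7A and the lysosomal sterol carrier NPC2, which are on no list, were in the same class. RAB7A went from 18.4 FPKM to 47.1 in HGC27 and from 32.2 to 33.5 in MKN45, and NPC2 went from 32.9 FPKM to 80.9 in HGC27 and from 18.2 to 19.5 in MKN45. UVRAG and MAP1LC3B were higher in both lines, with line differences of 0.01 and 0.31.

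**Figure D5:**
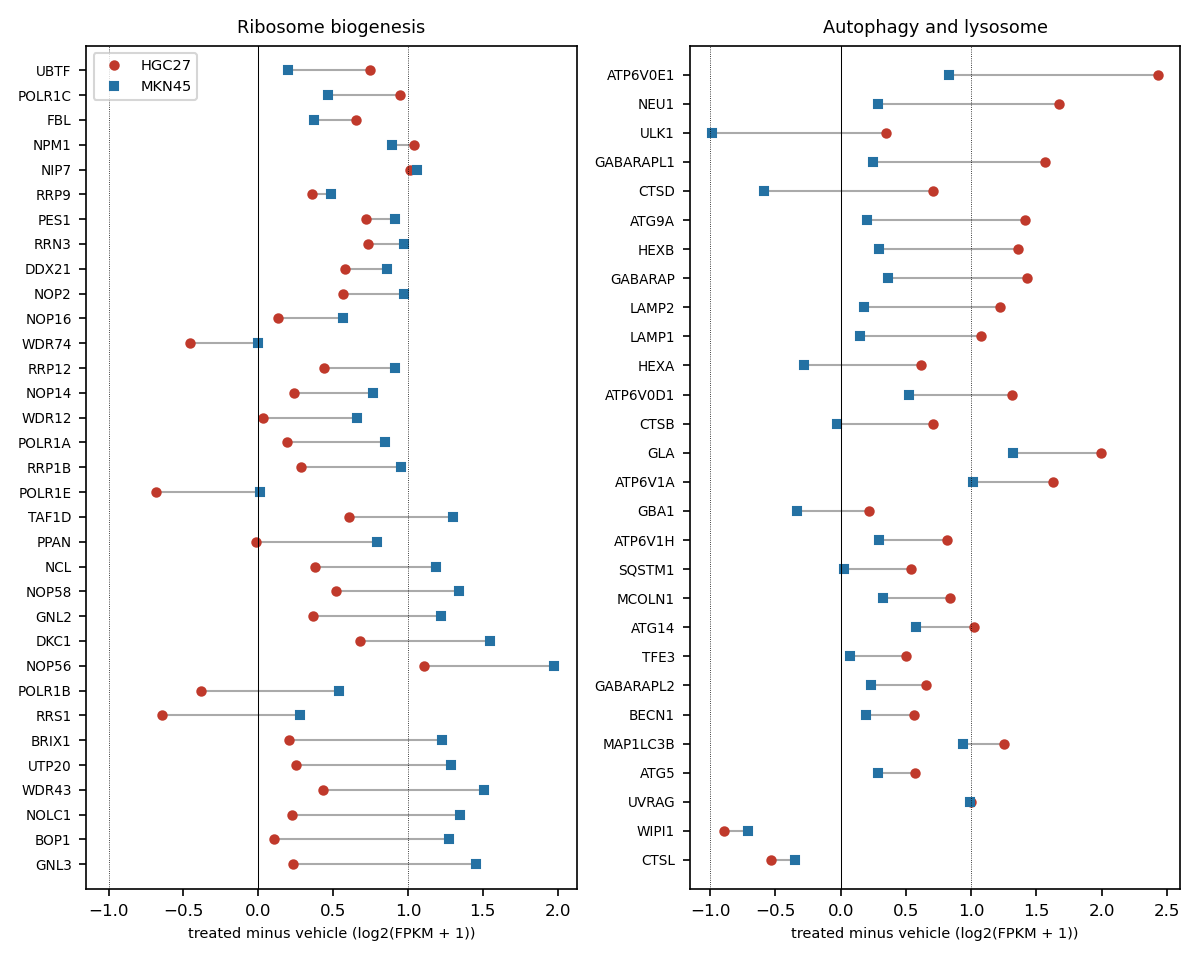
Response (horizontal axis, treated minus vehicle in log2(FPKM + 1)) of each measured ribosome biogenesis gene (left) and autophagy or lysosome gene (right) in HGC27 (red circles) and MKN45 (blue squares), ordered by line difference. For most ribosome biogenesis genes the MKN45 value lies to the right, and for most autophagy and lysosome genes the HGC27 value does; dotted lines mark responses of -1 and 1.

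Chaperones of the endoplasmic reticulum followed the same direction, with 4 of 14 called higher in HGC27, none in MKN45 and a median line difference of 0.71. Over all members 10.4% were called higher in HGC27 and 8.45% in MKN45, and 20.0% and 14.5% at 10 FPKM or more in both lines. Calreticulin (CALR), a calcium-binding chaperone (chromosome 19, 12938578 to 12944489, plus strand), went from 177 FPKM to 519 in HGC27 and from 184 to 197 in MKN45 (1.45; 1.41 to 1.49). HSPA5, the main chaperone of the compartment, went from 68.95 FPKM to 115 in HGC27 and from 107 to 90.7 in MKN45. PDIA4 and MANF, both of protein folding, were lower in treated MKN45, with responses of -0.92 and -0.88 against 0.18 and 0.19 in HGC27. XBP1, a regulator of that response, was called lower in both lines with a line difference of 0.30, and HERPUD1, of protein degradation at that membrane, went from 30.96 FPKM to 26.3 in HGC27 and from 30.8 to 7.94 in MKN45. Also in the class higher in HGC27 and near 0 in MKN45 were the translocation proteins TRAM1 and SSR2, the cargo receptor TMED9 and TM9SF2. TMED9 went from 13.9 FPKM to 39.7 in HGC27 and from 30.9 to 32.7 in MKN45, and TRAM1 went from 28.6 FPKM to 71.9 in HGC27 and from 28.7 to 28.4 in MKN45. Among 30 genes of COPI, COPII and TMED transport 3 had a line difference of at least 1, TMED9, TMED10 and TMED1, of which the last overlaps another model, and the list median of 0.16 turned to -0.10 under 1 of the 10 alternative settings.

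Where the mean reached 10 FPKM in both lines, the class higher in HGC27 and near 0 in MKN45 was led by CA2, carbonic anhydrase 2, from 3.61 FPKM to 17.6 in HGC27 and from 44.8 to 42.9 in MKN45. It was followed by RAMAC, a cofactor of mRNA cap methylation, from 7.21 FPKM to 28.4 in HGC27 and from 15.9 to 18.998 in MKN45, and ETNK1, ethanolamine kinase, from 4.84 FPKM to 16.8 in HGC27 and from 12.3 to 14.1 in MKN45. UBE2B, a ubiquitin-conjugating enzyme, went from 8.87 FPKM to 28.3 in HGC27 and from 19.8 to 22.9 in MKN45, and DGCR2 went from 6.52 FPKM to 21.7 in HGC27 and from 13.1 to 14.6 in MKN45. LMNA, the nuclear lamin A/C gene, went from 33.5 FPKM to 85.8 in HGC27 and from 65.1 to 65.2 in MKN45. Aldolase A (ALDOA) went from 66.8 FPKM to 206 in HGC27 and from 321 to 325 in MKN45, although 55.6% of its exon length is shared with another model. In CA2 and ALDOA the vehicle level of HGC27 was below that of MKN45, and the gap was narrower in the treated libraries. In RAMAC, ETNK1, UBE2B, DGCR2 and LMNA HGC27 was also below MKN45 in vehicle, but above it in the treated libraries. Over the 129 genes of this class at all levels the median vehicle level was 0.47 lower in HGC27 than in MKN45 on the log2(FPKM + 1) scale, and the median treated level was 0.70 higher.

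The mirror class was lower in MKN45 and near 0 in HGC27. Beside ASNS, HERPUD1, AARS1, SARS1 and EPRS1 it held RPS18, given above, and CKAP4, a membrane protein of the endoplasmic reticulum, which went from 15.96 FPKM to 13.8 in HGC27 and from 37.7 to 10.8 in MKN45. IGBP1, a regulatory partner of protein phosphatase 2A, went from 14.7 FPKM to 13.1 in HGC27 and from 40.3 to 10.5 in MKN45. For both CKAP4 and IGBP1 the library that stood apart was vehicle MKN45, the highest of the 4. Lower in HGC27 and near 0 in MKN45 at this level were 5 genes. PFN2, an actin-binding profilin, went from 40.8 FPKM to 14.5 in HGC27 and from 55.1 to 59.4 in MKN45. ANKMY2 went from 16.5 FPKM to 7.43 in HGC27 and from 11.1 to 12.2 in MKN45. SLC25A10 and TIMM9, of the same class, overlap other models. Most of the 104 genes of that class lay lower: the class had median levels of 3.17 FPKM in HGC27 and 4.19 FPKM in MKN45, against 7.37 and 7.72 FPKM over all members.

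Histone genes and NRF2 targets also leaned toward HGC27. Of 12 core and linker histone members 7 were called higher in HGC27 and none in MKN45, 6 had a line difference of at least 1 and 1 of at most -1, with a median of 0.96. H2BC12 went from 16.8 FPKM to 68.1 in HGC27 and from 13.98 to 22.2 in MKN45, the variant H3-3A went from 42.3 FPKM to 144 in HGC27 and from 49.4 to 61.7 in MKN45, and H2AX, which marks DNA breaks when phosphorylated, went from 23.3 FPKM to 87.3 in HGC27 and from 59.5 to 97.7 in MKN45. Replication-dependent histone mRNAs mostly lack a poly(A) tail, and the libraries were made from mRNA captured on beads, so that their levels here may not follow the total; this was not tested. Of 17 NRF2 targets, genes against oxidants, 4 were called higher in HGC27 and 1 in MKN45. The count of 4 is near the 20.0% called higher in HGC27 among members at 10 FPKM or more in both lines (10.4% over all members). A line difference of at least 1 was seen in 5 (29.41%, against 5.94% over all members) and 1 of at most -1 (SRXN1, which mostly overlaps another model), with a median of 0.73. Haem oxygenase 1 (HMOX1) went from 2.796 FPKM to 9.13 in HGC27 and from 1.04 to 1.02 in MKN45, the quinone reductase NQO1 went from 58.1 FPKM to 105 in HGC27 and from 207 to 153 in MKN45, and peroxiredoxin 1 (PRDX1) went from 142 FPKM to 376 in HGC27 and from 322 to 362 in MKN45. TXNRD1, thioredoxin reductase, was called higher in both lines, with a line difference of -0.26.

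Cytosolic ribosomal proteins, 84 members, had a median response of 0.40 in HGC27 and -0.14 in MKN45, and a median line difference of 0.52. Of them 5 (5.95%) had a line difference of at least 1, the same share as over all members (5.94%), and none of at most -1. Members with a lower-line mean above 100 FPKM had a median line difference of 0.38, so the list median is partly shared with other genes at high levels. Few single genes passed the threshold within a line, 3 higher in HGC27 and 3 lower in MKN45. RPS26 went from 129 FPKM to 157 in HGC27 and from 92.03 to 47.1 in MKN45 and RPS10 from 197 FPKM to 302 in HGC27 and from 293 to 172 in MKN45. RPS10 is uncertain, since 39.4% of its exon length is shared with RPS10-NUDT3, whose line difference was -3.201. These genes have many processed pseudogenes, so that their reads can be divided in counting.

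The nucleolar factors that assemble ribosomes went toward MKN45. All 33 ribosome biogenesis genes were members, 13 were called higher in MKN45 and 3 in HGC27, 6 had a line difference of at most -1 and none of at least 1, and the median was -0.67. GNL3, nucleostemin (chromosome 3, 52681156 to 52694492, plus strand), went from 44.9 FPKM to 53.05 in HGC27 and from 46.3 to 129 in MKN45 (-1.22; -1.29 to -1.14). NOLC1, a nucleolar scaffold (chromosome 10, 102152176 to 102163871, plus strand), went from 169.7 FPKM to 199 in HGC27 and from 66.5 to 171 in MKN45 (-1.12; -1.17 to -1.08). BOP1 and BRIX1, of large-subunit assembly, went from 14.5 FPKM to 15.7 in HGC27 and from 22.3 to 55.2 in MKN45 and from 24.3 FPKM to 28.3 in HGC27 and from 30.1 to 72.1 in MKN45, respectively. WDR43, of the small-subunit processome, went from 37.3 FPKM to 50.8 in HGC27 and from 40.4 to 117 in MKN45. In GNL3, WDR43, BOP1 and BRIX1 treated MKN45 was the highest of the 4 libraries. NOP56, a core protein of box C/D particles, was called higher in both lines, from 62.3 FPKM to 135 in HGC27 and from 27.4 to 111 in MKN45. The class higher in MKN45 and near 0 in HGC27 held further assembly factors that were on no list: MAK16 went from 18.4 FPKM to 15.5 in HGC27 and from 16.005 to 45.9 in MKN45, and LYAR, RPF2, PUM3 and RIOK1 had line differences of -1.38, -1.02, -1.15 and -1.21. At 10 FPKM or more in both lines its other leading genes were PLS3, an actin bundler, from 27.6 FPKM to 31.8 in HGC27 and from 40.1 to 125 in MKN45, and SARNP, whose exons overlap another model. UBTF, a factor of RNA polymerase I, and POLR1C leaned toward HGC27, with UBTF at 0.55.

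Host genes of small nucleolar RNAs had a median line difference of -0.64 over 14 members, with 3 of at most -1 and none of at least 1. SNHG1 went from 135 FPKM to 80.5 in HGC27 and from 43.1 to 83.6 in MKN45, and SNHG15 went from 20.2 FPKM to 21.6 in HGC27 and from 19.2 to 47.4 in MKN45, while SNHG8 was lower in both lines and more so in HGC27 (-1.02). Polyamine genes were mixed. SRM, spermidine synthase, went from 27.2 FPKM to 25.9 in HGC27 and from 16.96 to 38.3 in MKN45, and AZIN1, the antizyme inhibitor that protects ornithine decarboxylase, went from 18.5 FPKM to 19.8 in HGC27 and from 47.05 to 117 in MKN45. ODC1, ornithine decarboxylase, was called higher in both lines, from 56.97 FPKM to 131 in HGC27 and from 74.2 to 300.4 in MKN45. For SAT1, the catabolic enzyme above, HGC27 had the higher response. Splicing factors of the SR group had a median of -0.32, with SRSF7 going from 71.6 FPKM to 53.3 in HGC27 and from 53.98 to 105 in MKN45 and TRA2B at a line difference of -1.02.

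Some growth arrest and glucose-sensing genes had a higher response in MKN45 than in HGC27, while the antiproliferative TOB1, given above, went toward HGC27 (2.27). GADD45A, a stress-induced growth arrest gene, went from 38.02 FPKM to 20.7 in HGC27 and from 31.3 to 60.6 in MKN45, and GADD45B went from 3.8999 FPKM to 10.2 in HGC27 and from 5.901 to 64.98 in MKN45. PLK2, a p53-responsive kinase, went from 25.5 FPKM to 32.1 in HGC27 and from 7.695 to 36.6 in MKN45, and the nuclease AEN went from 7.32 FPKM to 6.32 in HGC27 and from 13.8 to 36.2 in MKN45. These 4 made up the p53 targets with a line difference of at most -1, BTG2 and CCNG2 had one of at least 1, and the list of 28 had a median of 0.02, so that it had no common direction. The MondoA targets TXNIP and ARRDC4 and the arrestin-like ARRDC3 all had line differences of at most -1. Their HGC27 responses differed in direction, at 0.90, 0.79 and -1.24. TXNIP, an inhibitor of thioredoxin and glucose uptake, went from 111 FPKM to 208 in HGC27 and from 32.2 to 169.7 in MKN45, and ARRDC4 went from 15.2 FPKM to 26.8 in HGC27 and from 5.47 to 34.7 in MKN45.

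Several lists held genes that went far in both directions. Of the caveolar coat genes, CAV1 went from 2.55 FPKM to 8.65 in HGC27 and from 22.5 to 318 in MKN45 and CAV2 from 1.34 FPKM to 2.51 in HGC27 and from 29.5 to 274 in MKN45, whereas CAVIN1 went from 20.7 FPKM to 109 in HGC27 and from 1.98 to 2.23 in MKN45 and the neck protein EHD2 from 5.104 FPKM to 11.1 in HGC27 and from 13.7 to 7.61 in MKN45. Immediate early genes had a median of 0.30, which turned to 0.00 or just below under the common total, with JUNB, ZFP36L2 and FOS at least 1 toward HGC27 and MYC, ATF3, KLF10, CSRNP1 and MAFK at least 1 toward MKN45. JUNB went from 13.01 FPKM to 26.3 in HGC27 and from 24.6 to 11.6 in MKN45. MYC, the growth-promoting transcription factor, went from 61.3 FPKM to 23.05 in HGC27 and from 6.81 to 7.64 in MKN45, so that both MKN45 libraries lay below both of HGC27 and the gap was narrower after treatment. MXD4, an antagonist of MYC, went from 6.702 FPKM to 10.1 in HGC27 and from 2.93 to 0.647 in MKN45. Among 15 homeobox genes HOXB9 went from 27.6 FPKM to 3.84 in HGC27 and from 5.86 to 4.61 in MKN45 and HOXB13 from 4.97 FPKM to 6.66 in HGC27 and from 4.66 to 0.662 in MKN45, both of the HOXB cluster, and 4 of the 15 had a line difference of at least 1. Of glycolysis genes ALDOA stood on the HGC27 side and PFKP and HK2 on the MKN45 side. PFKP, a phosphofructokinase, went from 15.4 FPKM to 9.54 in HGC27 and from 30.7 to 50.2 in MKN45, and HK2, hexokinase 2, went from 20.2 FPKM to 10.4 in HGC27 and from 18.9 to 24.7 in MKN45. PDK1, which inhibits pyruvate dehydrogenase, went from 2.16 FPKM to 0.741 in HGC27 and from 3.21 to 6.64 in MKN45.

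Ion transport genes, nearest to the target of the compound, also varied. Of 24 members 6 had a line difference of at least 1 and SLC4A7, a sodium bicarbonate cotransporter, had -1.25, and the list median of 0.18 turned to -0.09 under 1 of the 10 alternative settings. The taurine carrier SLC6A6 went from 3.27 FPKM to 17.2 in HGC27 and from 18.7 to 25.6 in MKN45, and the sodium-potassium-chloride cotransporter SLC12A2 went from 3.68 FPKM to 9.84 in HGC27 and from 10.1 to 9.32 in MKN45. LRRC8A, a subunit of the volume-regulated anion channel, was higher in both lines with a line difference of 1.03, as was ATP1B3, a beta subunit of the sodium pump, with 1.17. The plasma membrane calcium pump ATP2B4 went from 13.2 FPKM to 11.8 in HGC27 and from 2.96 to 0.384 in MKN45.

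Of 23 epithelial identity genes 2 were members. ESRP1, an epithelial splicing factor, went from 7.64 FPKM to 0.0348 in HGC27 and from 60.8 to 76.3 in MKN45. Its treated HGC27 value rests on an estimated 4 reads, so no interval is given. TJP1, of tight junctions, went from 7.85 FPKM to 6.75 in HGC27 and from 6.58 to 14.8 in MKN45. Of 27 mesenchymal and matrix genes 6 were members, among them MMP14 above and TIMP2, an inhibitor of such proteases, which went from 19.4 FPKM to 24.8 in HGC27 and from 4.396 to 1.34 in MKN45.

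The lines did not part on every program. Of 34 mitosis genes 26 were called higher in HGC27 and 25 in MKN45, and the median line difference was 0.02, with HMMR, a spindle-associated protein, at -1.25 and no other past the threshold. The 13 mitochondrially encoded mRNAs had median responses of -0.74 in HGC27 and -0.78 in MKN45, with line differences from -0.45 to 0.52. None of 35 proteasome subunits had a called line difference (median 0.24). Medians of 36 sterol and fatty acid synthesis genes (-0.04) and 77 mitochondrial ribosomal proteins (-0.09) were also close to that of all members, although 3 and 7 of their members, respectively, had a called line difference. Of 10 settings the median changed sign under 5 for mitosis, 4 for the mitochondrially encoded genes, 1 each for the proteasome and sterol lists and 0 for mitochondrial ribosomal proteins.

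Membership turned on small differences at the floor of 1 FPKM. KYAT1, FAM81A and MPP2 lay just inside it, with lower-line means that round to 1 FPKM and line differences of -0.13, 0.09 and -0.39. PLCH1, TBC1D24 and CABLES2 lay just outside, with line differences of -0.69, 0.10 and -0.10.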

How the data were processed

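RNA-seq libraries from HGC27 and MKN45 cells, vehicle and periplocymarin, were analysed, with 1 library per group. Per the labels' protocols mRNA was captured on beads from total RNA, and per the submitters' processing notes fastp 2.0, HISAT2 2.1.0 and hg38 were used. How reads were counted, by which annotation and strand setting, is not given in the sources used here. The authors deposited 1 table of normalized expression, read here as FPKM although its header names no unit. That reading rests on values above 0 times GENCODE 29 exon length. These fell within 0.01 reads of whole multiples of 1 read for 45.6% to 46.8% of genes in each library. The value of 1 read also gave the estimated depth. For the other genes the length was not matched in this way, so their estimated reads and counting errors are less certain. Counting errors cover reads only.

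FPKM + 1 was log2-transformed with a mean of at least 1 FPKM required in each line, in Python 3.11.15 with pandas 2.3.3 and numpy 2.4.6. Calls used a threshold of 1, near 0 meant within 0.25, and the steps were tested on simulated counts. No test across samples is possible. Each library is of a different line or treatment and no replicate culture is given, so variation between cultures could not be estimated.

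The members and gene lists were chosen with earlier results of these data known. Genes named were the 12 highest and 12 lowest line differences among protein-coding genes at 10 FPKM or more in each line, the opposite classes, the 6 leading genes of each class with a call in 1 line, and up to 4 genes per list. Other list members and a few genes on no list were named after their values were seen. Alternatives were quantile normalization, a common total, median and trend centring, a pseudocount of 0.1, other level filters, protein-coding genes, a threshold of 1.5 and, chosen after seeing the data, genes without exon overlap above 25% and genes with at least 100 estimated reads in each library. A few genes are not reported here by name.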

Additional observations from a re-analysis of the deposited data

Results flagged for a closer look

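In 21 members both lines passed the threshold in opposite directions, with 1 library per group. That the difference exceeds variation between cultures was not tested. Toward HGC27 the line differences were 2.52 for CYBRD1, 2.90 for EPDR1, 2.30 for FBXL19, 2.85 for SAT1, 2.31 for PBXIP1, 3.49 for RPL7A and 3.02 for TMEM160. The lowest library of TMEM160 rests on an estimated 11 reads. Further values on this side were 3.48 for ENSG00000167774 and 3.97 for ENSG00000257390, whose exons lie mostly over other gene models. Their lowest libraries rest on an estimated 10 and 6 reads. The value was 5.46 for ENSG00000289720, which has no match in GENCODE 29 and so no read estimate. Toward MKN45 they were -5.99 for GDF15, -2.72 for ARRDC3, -2.14 for DSP, -2.15 for PROCR, -2.11 for GPCPD1 and -2.48 for GPRC5B. SNORD101 (-2.48) and SNORD19C (-2.36) are small nucleolar RNAs whose lowest libraries rest on an estimated 4 and 2 reads. RPL17-C18orf32 (-4.18), RPS10-NUDT3 (-3.20) and ENSG00000258790 (-4.91) share nearly all exon length with other models, and ENSG00000258790 was at 0 FPKM in treated HGC27. Of the 21, 12 had at least 100 estimated reads in each library (5 toward HGC27 and 7 toward MKN45).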

How the results depend on the processing

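No paired analysis was possible because each line and treatment had 1 library, and for the same reason no replicate could be left out. Chosen by the naming rule or added to it were 197 genes with a called line difference. All kept their sign under quantile normalization, the common total, and median and trend centring. A kept sign says little, since the genes were chosen at 1 or beyond. The median line difference under these settings lay between -0.23 and -0.004. Their calls held less often: 167 of the 197 stayed at or past 1 under quantile normalization, 170 under the common total, 189 with median centring and 165 with trend centring. Level and gene filters leave the value of a gene unchanged, so sign and call could not change under them. With a pseudocount of 0.1 the sign held for 196, and UCP2 turned from -1.10 to 0.27. Counts depended on the settings, and the cause was not tested. For members at least 1 higher and at least 1 lower in HGC27, 598 and 569 became 454 and 1448 under the common total, 902 and 923 with a pseudocount of 0.1, and 1096 and 1087 of 32364 genes without a level filter. Fewer genes passed by construction where the mean reached 10 FPKM (207 and 93) and at a threshold of 1.5 (159 and 143). Under the common total, calls in HGC27 alone numbered 74 higher and 243 lower, calls of higher in MKN45 alone 218, and opposite calls toward MKN45 34. The pseudocount of 0.1 gave 128 genes lower in MKN45 alone and 24 and 28 opposite genes toward HGC27 and MKN45. At 10 FPKM or more the classes held 53 and 5 genes higher and lower in HGC27 alone, 24 and 17 in MKN45 alone, and 1 and 2 opposite genes. Without a level filter they held 220 and 373 in HGC27 alone and 205 and 327 in MKN45 alone. The threshold of 1.5 gave 18 and 18 in HGC27 alone, 12 and 17 in MKN45 alone, and 3 and 1 opposite. Opposite genes toward MKN45 numbered 7 with quantile normalization, 7 without exon overlap and 7 with at least 100 estimated reads, the latter with 5 toward HGC27. Depth limits genes at 1 to 3 FPKM most. List medians that kept their sign in all 10 settings that recompute them were those of ATF4 targets (0.54 to 0.96), synthetases (0.16 to 0.51), BMP and SMAD genes (0.13 to 1.59), autophagy and lysosome genes (0.44 to 0.72), histones (0.60 to 1.13), cytosolic ribosomal proteins (0.24 to 0.54), ribosome biogenesis (-0.97 to -0.67) and snoRNA hosts (-0.98 to -0.57), among others.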

Other observations

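Genes of cell death and receptors showed single differences without a common direction. Of 24 measured BCL2 family and death genes 2 had a line difference of at least 1 and 1 of at most -1. BMF, a BH3-only protein that promotes apoptosis, went from 0.404 FPKM to 1.67 in HGC27 and from 3.06 to 0.808 in MKN45. BCL2L11, which encodes BIM of the same family, went from 2.85 FPKM to 2.05 in HGC27 and from 7.44 to 15.3 in MKN45. These 2 BH3-only genes thus differed between the lines in opposite directions (2.09 and -1.28). ERBB2, the one EGFR family receptor measured in both lines, went from 4.33 FPKM to 9.704 in HGC27 and from 13.2 to 10.3 in MKN45.

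Of 22 measured targets of YAP and SRF, which respond to cell shape and actin, 7 were called higher in HGC27 and 6 in MKN45. The 11 YAP targets among them had median responses of 1.57 in HGC27 and 1.56 in MKN45. The list had a median line difference of -0.12, which changed sign under 4 of 10 settings, and 2 members past the threshold on each side. F3 (tissue factor) went from 1.06 FPKM to 1.5005 in HGC27 and from 3.38 to 25.6 in MKN45. WWC1, a Hippo pathway scaffold, went from 2.34 FPKM to 1.84 in HGC27 and from 14.5 to 44.6 in MKN45. LATS2, a kinase that restrains YAP, went from 2.82 FPKM to 14.9 in HGC27 and from 4.26 to 9.26 in MKN45. Of 14 tubulins 2 had a line difference of at least 1. TUBB4B went from 60.2 FPKM to 274 in HGC27 and from 162 to 247 in MKN45, and TUBB went from 12.7 FPKM to 25.5 in HGC27 and from 11.3 to 10.8 in MKN45. CPT1A, which admits fatty acids to mitochondria, went from 10.9 FPKM to 18.9 in HGC27 and from 39.7 to 22.6 in MKN45, and the ferrireductase STEAP3 went from 2.704 FPKM to 0.223 in HGC27 and from 21.1 to 19.2 in MKN45. In replication MCM10 and CDC45, both of helicase activation, had line differences of -1.38 and -1.25, while the median of the list of 38 was -0.23.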
